A study of Rattus norvegicus with 6 samples.

Results

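The 67 microRNAs (miRNAs) described here are those on a rat miRNA array named miR-3473 or numbered from miR-3541 to miR-3596 in the array design, with any letter or arm. They were picked by the number in their name, but with earlier results of these data known. They make up 67 of the 758 miRNAs of the array, 139 of its 1806 probes and 1072 of its 12128 miRNA spots. The arrays held RNA from the terminal hindgut of fetal Sprague Dawley rats. The ARM group (3 samples) came from fetuses with an anorectal malformation (ARM), whose dams had been given ethylenethiourea (ETU) at 125 mg/kg by gavage on gestational day 10. The control group (3 samples) came from healthy fetuses, whose dams had received distilled water on the same day. In both groups the fetuses were taken on embryonic day 20 and 1 cm of hindgut was used. Exposure to ETU and the malformation are joined in the ARM group and cannot be told apart. No label names a dam or litter or says whether a sample is 1 fetus, so the p-values rest on the spread of these samples alone, which may be technical.

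A miRNA is cut from a hairpin transcript by the enzymes Drosha and Dicer and guides an Argonaute protein to messenger RNAs, mainly through its seed, bases 2 to 8 from the 5′ end. Many of the miRNAs with these numbers were first named in rat or mouse from small-RNA sequencing, and few of them have a described target or function. Some lie on the strand opposite a long-known miRNA: their hairpin is the reverse complement of that miRNA's hairpin, so both mature products, if made, would pair with each other. Mirrored miRNA loci of this kind are known from flies and mammals.

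RefSeq (build GRCr8) held a mature sequence for 62 of the 67 members. The 5 without one are miR-3568, miR-3577, miR-3586-3p, miR-3586-5p and miR-3593-5p. The 9 members that were detected on at least 3 arrays are those compared between the groups, and their mature sequences follow with the seed in capitals.
miR-3473, chr13:42051730-42051751, plus strand: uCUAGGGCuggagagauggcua
miR-3549, chr10:65170337-65170355, minus strand: aUCUUGCCcgcaaagaccc
miR-3557-3p, chr18:57128962-57128983, plus strand: aCACAGGAccuggagucaggag
miR-3559-5p, chrX:73660193-73660214, minus strand: uGACAGACuuaguacuacauga
miR-3562, chr10:105848002-105848023, minus strand: uUGGGGCAguggcuggauggga
miR-3573-3p, chrX:68299322-68299344, plus strand: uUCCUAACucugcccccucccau
miR-3584-5p, chr1:256727582-256727599, minus strand: gGGAGGAGuccaggaggc
miR-3588, chr11:29732588-29732609, minus strand: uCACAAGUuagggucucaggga
miR-3593-3p, chr6:78987770-78987791, minus strand: cUUCAACCuuaagggggccuca

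None of these 9 seeds is shared with another rat miRNA of the RefSeq table. Among the members that were not detected, miR-3573-5p has the seed of miR-423-5p, and miR-3596d has that of several let-7 passenger (3p) strands. By position, 8 of the 9 lie inside the span of another RefSeq gene, for which the table gives neither strand nor exons. miR-3473 lies within Zranb3 (a DNA translocase of the replication stress response), miR-3549 within Faul2, miR-3557-3p within Ppargc1b (a transcriptional coactivator of mitochondrial genes), miR-3559-5p within Zdhhc15 (a palmitoyltransferase) and miR-3562 within Cep131 (a centrosomal and ciliary protein). miR-3573-3p lies within Efnb1 (ephrin-B1, a cell surface ligand of Eph receptors), miR-3584-5p within Itprip and a long noncoding RNA gene, and miR-3588 within a long noncoding RNA gene. miR-3593-3p lies in no other gene of the table. Of the members with a sequence, 11 of the 12 detected on at least 1 array and 39 of the 50 detected on none lie inside another gene.

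In all, 30 of the 62 members with a sequence lie opposite a mature miRNA, with 16 to 22 overlapping bases. The pairs below hold the members detected on any array and 3 whose opposite miRNA is abundant in muscle, liver or many tissues; the overlapping bases are in capitals and the member comes first in each pair.
miR-3588: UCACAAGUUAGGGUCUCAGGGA
miR-125b-5p: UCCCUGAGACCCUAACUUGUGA
miR-3549: AUCUUGCCCGCAAAGACCC
miR-193a-5p: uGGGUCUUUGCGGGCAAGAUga
miR-3557-3p: ACACAGGACCUGGAGUCAGGAG
miR-378a-5p: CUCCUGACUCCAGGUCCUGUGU
miR-3560: CAAAUCCUUGCCCGGGUGCAUU
miR-501-3p: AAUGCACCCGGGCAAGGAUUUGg
miR-3571: UACACACUUCUUUACAUUCCAua
miR-1-3p: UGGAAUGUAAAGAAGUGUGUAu
miR-3591: AACACCAUUGUCACACUCCA
miR-122-5p: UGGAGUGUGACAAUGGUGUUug
miR-3596a: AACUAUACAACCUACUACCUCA
let-7a-5p: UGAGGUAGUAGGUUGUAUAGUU

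The letters of miR-3473 recur in the genome. Every 15-base window of each member's mature sequence was searched on both strands of 33469 RefSeq promoter windows of 300 bases around the gene starts. A window of miR-3473 was found in 111 of them (0.332%), and its bases 7 to 21, written as DNA GCTGGAGAGATGGCT, were found in 99. These are the capitals of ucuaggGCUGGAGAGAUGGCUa. No other member matched more than 2 promoter windows: 13 members matched 1 or 2, and 48 matched none. As background, these letters are found near the start of the rodent B2 short interspersed element, a repeat of high copy number that is transcribed by RNA polymerase III. A match is a description of these letters and says nothing of the source of the array signal.

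Most members were not well above background in the hindgut. The scanner software marks each spot that is well above background; a probe with a share of at least 0.5 of its spots so marked was taken as detected on that array, and a miRNA with any such probe. On this call 7, 7 and 11 members were detected on ARM arrays 1 to 3, against 10, 10 and 6 on control arrays 1 to 3. The groups overlapped, with 8.33 ± 2.31 members on ARM arrays and 8.67 ± 2.31 on control arrays (SD, n = 3 each). Over all arrays 12 of the 67 members (17.9%) were detected at least once, 6 of them on all 6 arrays, and 55 on none. Of the other 691 miRNAs of the array, 37.8% were detected at least once. Another 37 miRNAs annotated mainly in rodents, such as miR-290 to miR-295, miR-465 to miR-467 and miR-669, gave 6 detected (16.2%). On a looser call, in which a spot had only to be significantly above background, 37 of the 67 members (55.2%) and 67.4% of the other miRNAs were detected at least once. Detection counts only signal against the array's own background, and a member not detected may still be present below it.

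The 3 members detected on 1 or 2 arrays were not tested. miR-3560 was detected on ARM array 3 alone, and no fold is given for it. miR-3564 was detected on control arrays 1 and 2, and no fold could be bounded for it. miR-3594-5p was detected on ARM array 3 and control array 2. It lies within Cep131, as miR-3562 does.

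The level of a miRNA is given as log2 of its scaled intensity, averaged over its probes. The 6 members detected on every array are described first. miR-3473 measured 10.79, 8.99 and 7.78 in ARM samples 1 to 3, against 10.20, 11.60 and 8.61 in control samples 1 to 3. Its highest ARM sample lay above 2 of the 3 control samples, so the groups overlapped, and its lowest and highest arrays were 14.1-fold apart. miR-3584-5p, an 18-base G-rich sequence, measured 7.80, 5.93 and 5.09 in ARM samples, against 7.87, 9.20 and 6.40 in control samples. ARM samples 2 and 3 were below every control sample and ARM sample 1 was not, and the arrays spanned 17.3-fold.

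miR-3588, which lies opposite miR-125b-5p, measured 4.16, 6.94 and 5.03 in ARM samples, against 6.09, 5.16 and 6.67 in control samples. ARM sample 2 was the highest array of all and ARM sample 1 the lowest. miR-3562 measured 6.26, 6.47 and 7.42 in ARM samples, against 6.81, 6.52 and 6.74 in control samples. The control samples were close together, while ARM sample 3 stood above the other arrays.

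miR-3573-3p measured 4.60, 4.69 and 4.89 in ARM samples, against 4.60, 4.89 and 4.81 in control samples. It was the steadiest of the tested members, with 1.22-fold between its lowest and highest array. miR-3559-5p measured 4.62, 4.37 and 4.22 in ARM samples, against 3.11, 3.70 and 4.00 in control samples. Every ARM sample was above every control sample. This level averages 1 probe detected on all arrays with 1 detected on none. The detected probe alone had scaled intensities of 37.2, 36.1 and 26.4 in ARM samples, against 13.4, 20.4 and 27.4 in control samples, and there control sample 3 lay above ARM sample 3.

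The other 3 tested members were close to background. miR-3549 measured 4.09, 4.28 and 4.17 in ARM samples, against 3.61, 3.47 and 4.02 in control samples, and its detected arrays were ARM 2, ARM 3 and control 1. The groups did not overlap, with the lowest ARM sample only just above control sample 3. On the dimmer probe of miR-3549 alone they did overlap: scaled intensity was 16.7 in control sample 3 and 16.5 in ARM sample 3. miR-3593-3p measured 4.70, 4.16 and 4.68 in ARM samples, against 4.02, 4.86 and 3.73 in control samples, with detection on ARM 1, ARM 3, control 1 and control 2. miR-3557-3p measured 2.30, 3.61 and 4.01 in ARM samples, against 3.49, 4.30 and 2.38 in control samples, and 1 of its 2 probes was detected, on ARM 3, control 1 and control 2. The highest array of both was control sample 2, and both had overlapping groups.

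**Figure D1:**
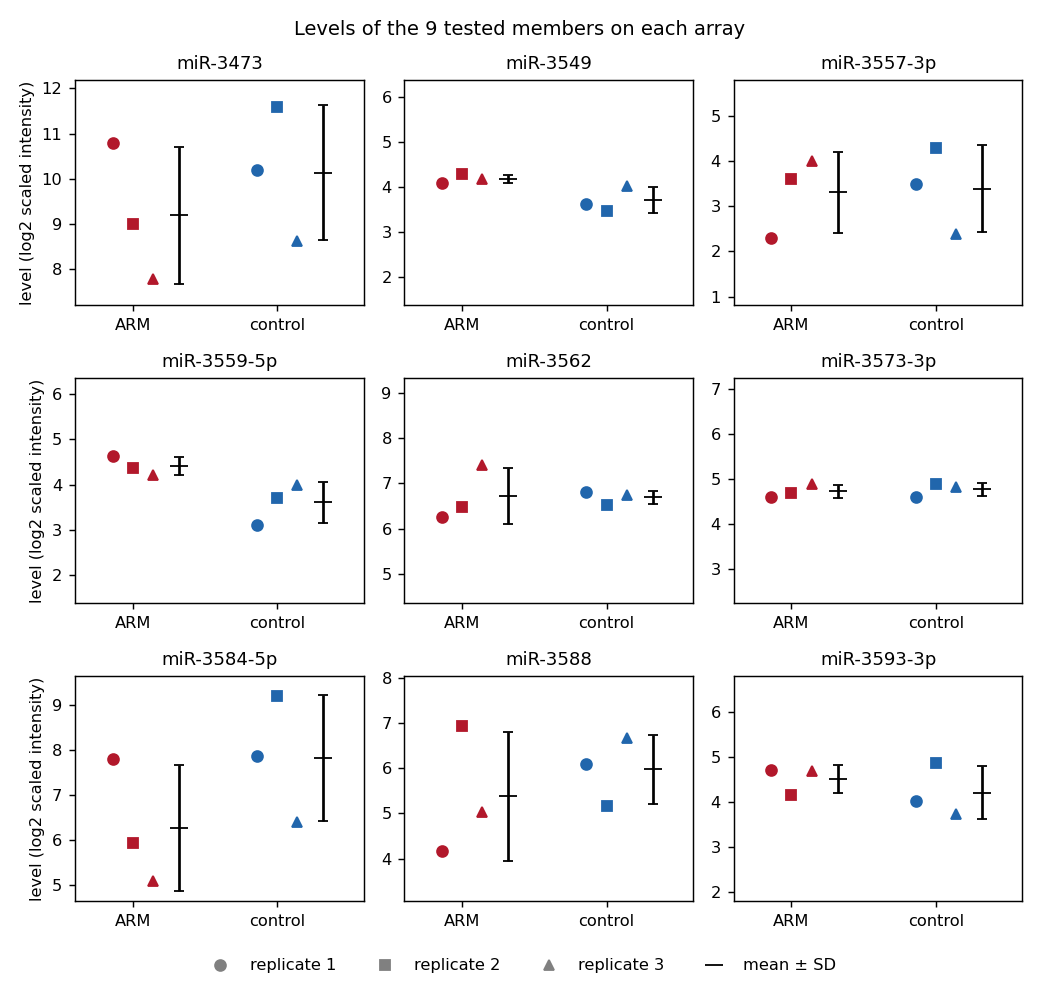
Levels of the 9 tested members, as log2 scaled intensity, in the ARM samples (left, red) and the control samples (right, blue) of each panel; marks are replicates and the black bar is the mean ± SD (n = 3). Every panel spans the same number of log2 units around its own middle, so miR-3473, miR-3584-5p and miR-3588 are seen to scatter most. Only miR-3549 and miR-3559-5p keep the groups apart, in the mean over their probes but not on every probe alone.

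Several members varied widely between samples of 1 group. The median SD over the 9 tested members was 0.62 among ARM samples and 0.59 among control samples, on the log2 scale. Over all 230 tested miRNAs it was 0.20 among ARM samples and 0.29 among control samples, and over the 6 tested miRNAs of the other rodent-annotated list it was 1.34 among ARM samples and 0.28 among control samples. The members were thus not alone in their scatter among ARM samples. miR-3473 had an SD of 1.51 among ARM samples and 1.49 among control samples, ranking 4 and 1 among the 230 from the most variable down. miR-3584-5p had an SD of 1.39 among ARM samples (rank 8) and 1.40 among control samples (rank 2). Both varied about equally in either group.

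miR-3588 had an SD of 1.42 among ARM samples (rank 7) and 0.76 among control samples (rank 18), but on its brighter probe, the only one detected on all arrays, 0.76 among ARM and 0.58 among control samples. miR-3557-3p had 0.89 among ARM samples (rank 14) and 0.97 among control samples (rank 11). Those SDs include its dimmer probe, which was detected on no array and had scaled intensities of only 2.82 to 12.5. miR-3562 varied in the ARM group with an SD of 0.62 (rank 19), against 0.15 among controls (rank 207). These ranks are a description and were not tested. ARM sample 3 was alone on its slide and had its own scan date, while all control samples shared the slide and scan date of the other ARM samples. An ARM SD can thus hold a slide or scan difference that a control SD does not. For miR-3562 this was the outlying sample, at 7.42 against 6.26 and 6.47 in ARM samples 1 and 2. miR-3573-3p was among the less variable miRNAs, with an SD of 0.15 among ARM samples and 0.15 among control samples, at ranks 147 and 208.

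**Figure D2:**
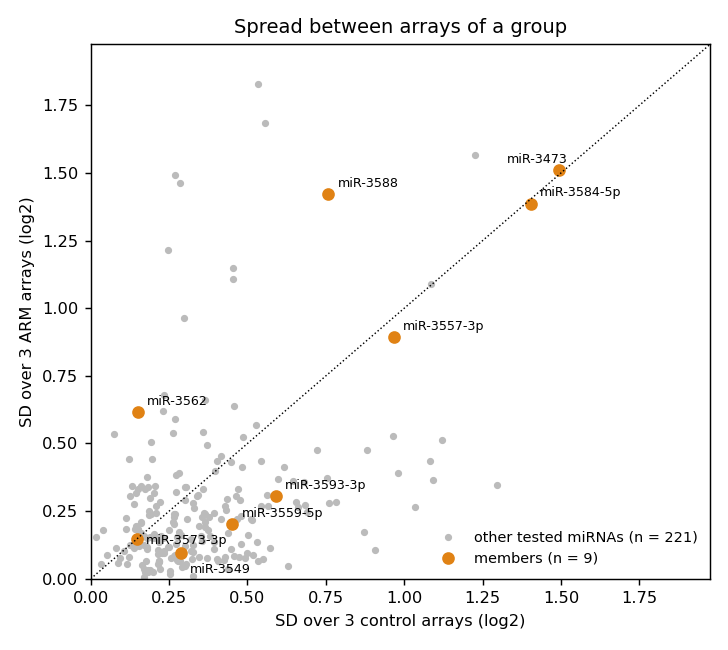
SD of the log2 level over the 3 ARM samples (vertical) against the SD over the 3 control samples (horizontal) for the 9 tested members (orange, named) and the other 221 tested miRNAs (grey); the dotted line marks equal SDs. miR-3473 and miR-3584-5p lie near the dotted line at SDs of 1.39 to 1.51, and miR-3588 and miR-3562 lie above it. ARM sample 3 was alone on its slide and scan date, and all control samples shared the other slide and scan date.

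The scatter of miR-3473 was the same in both of its probes. The brighter probe had scaled intensities of 5920, 1663 and 698 in ARM samples, against 3718, 10037 and 1226 in control samples. The dimmer probe had 528, 156 and 69.7 in ARM samples, against 372, 958 and 125 in control samples. The probes kept the same order of arrays, 9.82 to 11.2-fold apart, and the SD of their log2 difference over the 6 arrays was 0.07. The spots of each probe differed by a coefficient of variation of 0.977% to 7.34% within an array, which does not cover labelling, hybridisation or RNA input.

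The probes of miR-3584-5p lay within 1.03 to 1.19-fold of each other on every array. One of them had 228, 59.9 and 37.1 in ARM samples, against 253, 598 and 85.6 in control samples. The probes of miR-3588 differed in how far they moved. The brighter one had 203, 489 and 192 in ARM samples, against 332, 205 and 452 in control samples. The dimmer one had 1.57, 30.8 and 5.54 in ARM samples, against 13.9, 6.27 and 22.8 in control samples, and it was detected only on ARM 2, control 1 and control 3. Both put the arrays in nearly the same order, but on the brighter probe alone they spanned 2.54-fold, against 6.86-fold for the mean of both.

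**Figure D3:**
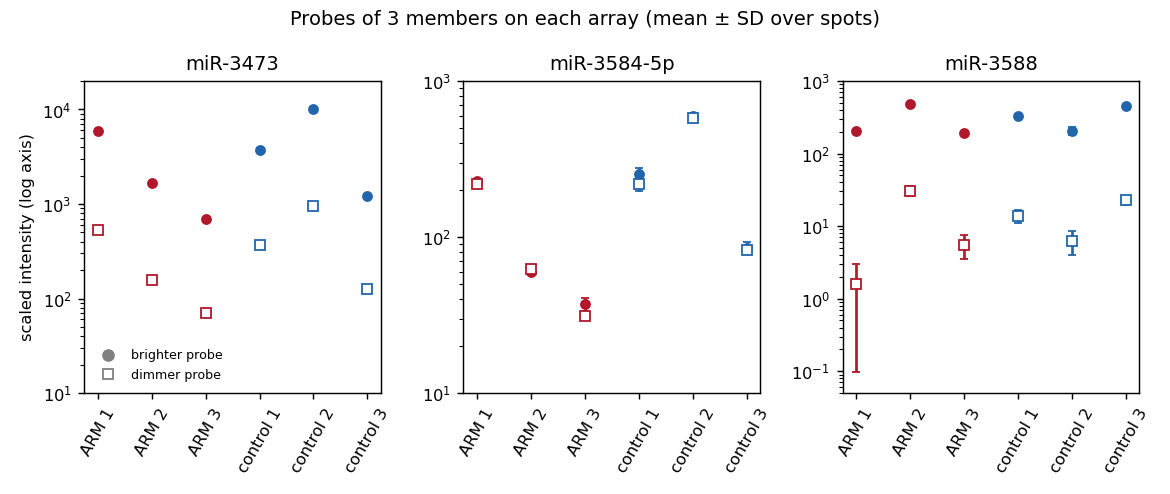
Scaled intensity on a log axis of the brighter (filled) and dimmer (open) probe of miR-3473, miR-3584-5p and miR-3588 on the ARM arrays (red, left) and the control arrays (blue, right); error bars are the SD over the spots of a probe. The probes of miR-3473 run in parallel, with their lowest values, 698 and 69.7, on ARM array 3 and their highest, 10037 and 958, on control array 2, and those of miR-3584-5p coincide.

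The arrays on which miR-3473 was high were those on which miR-3584-5p was high. Over the 6 arrays their levels gave a Pearson r of 0.97 (exact permutation p = 0.00833, two-sided; 0.3 after Benjamini-Hochberg adjustment over the 36 pairs of tested members) and a Spearman rho of 0.89 (exact permutation p = 0.0333, adjusted 0.6). Without the 2 arrays farthest from the median of miR-3473 (ARM 3 and control 2) r was 0.905. On the 5 arrays of slide 1 it was 0.953, and after each group's mean was taken off it was 0.997. No pair passed after adjustment, but with 6 arrays and 36 pairs no single pair could have fallen below 0.05 on its own. The adjusted values therefore cannot decide on any 1 pair. The pair with the next lowest p, miR-3549 with miR-3584-5p, had r = -0.84 (exact permutation p = 0.0278, adjusted 0.5), which was -0.48 without the 2 farthest arrays. Levels on 1 array share its RNA, labelling and scaling.

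ARM and control were compared by limma over all 230 tested miRNAs, to find which of them differ in the malformed hindgut. None of the 9 tested members passed an adjusted p of 0.05, where 31 of the 230 (13.5%) did. At an unadjusted p of 0.05, 2 members passed, beside 94 of the 230 (40.9%). The members were split in direction: 4 had a higher mean in ARM and 5 a lower one. Of all 230 tested miRNAs, 137 had a higher mean in ARM and 93 a lower one. Their median difference, ARM minus control, was -0.04 on the log2 scale, beside a median of 0.17 over all tested miRNAs. In bulk tissue such as this, fewer cells of a type and less RNA per cell cannot be told apart.

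In the mean over probes, the groups did not overlap for miR-3549 and miR-3559-5p. Both were higher in every ARM sample, as were 60 of the 230 tested miRNAs (26.1%). On the dimmer probe of miR-3549 and the detected probe of miR-3559-5p, taken alone, the groups overlapped. Every ARM sample was lower for 0 of the 9 members and for 52 of the 230 (22.6%). miR-3559-5p had the largest positive difference, 0.80 (SE 0.26, 95% interval 0.19 to 1.42, adjusted p = 0.0699), from means of 4.41 ± 0.20 in ARM and 3.60 ± 0.45 in control samples (SD, n = 3 each). miR-3549 differed by 0.47 (SE 0.20, interval 0.003 to 0.94, adjusted p = 0.121), from 4.18 ± 0.10 in ARM and 3.70 ± 0.29 in control samples. Both passed in the alternative that leaves out control sample 3: miR-3559-5p with 1.00 (adjusted p = 0.0303) and miR-3549 with 0.63 (adjusted p = 0.0280), where 43 of the 230 (18.7%) were called higher in ARM. With each array weighted by its agreement with the fit, miR-3559-5p had 0.89 (limma adjusted p = 0.0284) and miR-3549 had 0.58 (limma adjusted p = 0.0348), where 37 (16.1%) were called higher in ARM. Control sample 3 had the lowest weight, 0.32 against 0.80 to 1.91 for the other arrays. Both settings thus lessen the part of that same sample. Other settings made both differences smaller, with no pass. miR-3559-5p turned to -0.13 on the total gene signal, and miR-3549 was 0.16 without scaling and 0.30 on the total gene signal. With normexp background correction miR-3559-5p was 0.34 (SE 0.12, limma adjusted p = 0.0868) and miR-3549 was 0.26 (SE 0.10, limma adjusted p = 0.0915). Normexp was run with an added offset of 50, which narrows log2 differences and SEs at low intensity. Its values are therefore not on the scale of the main fit.

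miR-3584-5p had the largest difference of any member, -1.55 (SE 0.86), which did not pass (adjusted p = 0.200) beside SDs of 1.39 among ARM and 1.40 among control samples. Its 95% interval ran from -3.57 to 0.46. miR-3473 differed by -0.95 (SE 0.92, interval -3.11 to 1.22, adjusted p = 0.431). For both members the interval covers 0 and extends further below it than above. Within slide 1, which held all arrays but ARM 3, the difference was -0.96 for miR-3584-5p and -0.25 for miR-3473.

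The other 5 members had differences near 0 or wide intervals. miR-3588 differed by -0.60 (SE 0.71, adjusted p = 0.505) over both probes and by -0.23 on its brighter probe. The difference of miR-3593-3p was 0.31 (SE 0.32, adjusted p = 0.456) and that of miR-3557-3p -0.08 (SE 0.58, adjusted p = 0.913). miR-3562 differed by 0.03 (SE 0.31, adjusted p = 0.949), and within slide 1 by -0.32. The interval of miR-3573-3p was the narrowest of the members: -0.46 to 0.37 around a difference of -0.04 (adjusted p = 0.854).

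**Figure D4:**
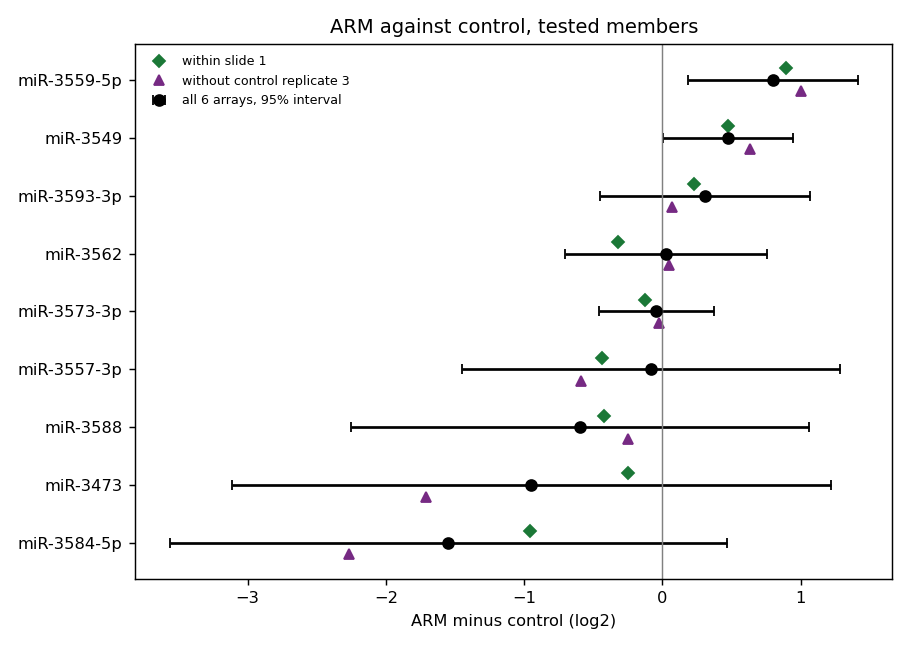
Difference of ARM minus control in log2 level for the 9 tested members, with the 95% interval of the limma fit over all 6 arrays (black), the value within slide 1 (green diamonds) and the value without control sample 3 (purple triangles). The intervals of miR-3559-5p and miR-3549 lie above 0 before adjustment for multiple tests, and those of miR-3584-5p and miR-3473 are the widest.

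The members that lie opposite a known miRNA were mostly undetected, whether or not that miRNA was detected. Of the 30 such members 4 were detected on at least 1 array, and of the 32 others with a sequence 8 were. In 29 pairs the opposite miRNA was also on the array. In 15 of these it was detected on all 6 arrays, and in 14 of the 15 the member was detected on none. Where the opposite miRNA was detected on no array, 10 of 12 members were on none. Of all 67 members, 55 were on none. The let-7 miRNAs, regulators of developmental timing, were among the 14 pairs. Here let-7a-5p, let-7d-5p, let-7e-5p and let-7f-5p were each detected on all 6 arrays, and miR-3596a, miR-3596b, miR-3596c and miR-3596d on none. The same held for miR-3556a, miR-3556b and miR-3587 opposite miR-29a-3p, miR-29c-3p and miR-29b-3p, a family that targets collagen messages, and for miR-3553, miR-3574 and miR-3590-5p opposite miR-183-5p, miR-210-3p and miR-130a-3p.

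miR-3588 was the exception, being detected on all 6 arrays as miR-125b-5p was. The difference of miR-125b-5p was -0.32 (SE 0.22, adjusted p = 0.268), with the sign of that of miR-3588. In 12 pairs the opposite miRNA was detected on no array, and 10 of those members were likewise on none; the other two were miR-3549 opposite miR-193a-5p and miR-3560 opposite miR-501-3p. miR-3557-3p was detected on 3 arrays and its opposite miR-378a-5p on 2. Detection on an array depends on each probe's own brightness, so these counts do not rank the strands.

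Some opposite miRNAs differed between the groups while the member was detected in neither. The level of miR-1-3p, a miRNA of striated muscle, fell by 3.62 on the log2 scale in ARM samples (SE 0.68, limma adjusted p = 0.0330). That of miR-122-5p, abundant in hepatocytes, fell by 4.44 (SE 0.77, limma adjusted p = 0.0330). However, miR-122-5p was detected on only 4 of the 6 arrays. Its ARM levels ran from 1.09 to 4.44, where the lowest detected level of an ARM array was 3.65 to 4.04. The size of its fall is therefore not firmly measured. The members opposite miR-1-3p and miR-122-5p, miR-3571 and miR-3591, were on no array. Of the members on chromosome 6, 7 lie opposite miRNAs of the imprinted Dlk1-Dio3 cluster, a region expressed mainly in fetal tissues and brain, and none of the 7 was detected. In that cluster miR-434-3p, opposite miR-3543, fell by 0.99 (SE 0.23, adjusted p = 0.0385) and miR-369-5p, opposite miR-3578, fell by 0.75 (SE 0.18, adjusted p = 0.0385). miR-376a-3p, opposite miR-3595, had a difference of -0.78 that did not pass (SE 0.29, adjusted p = 0.0928). These calls rest on all 6 arrays, and within slide 1 no miRNA was called (0 of 230, with 78 at an unadjusted limma p of 0.05).

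**Figure D5:**
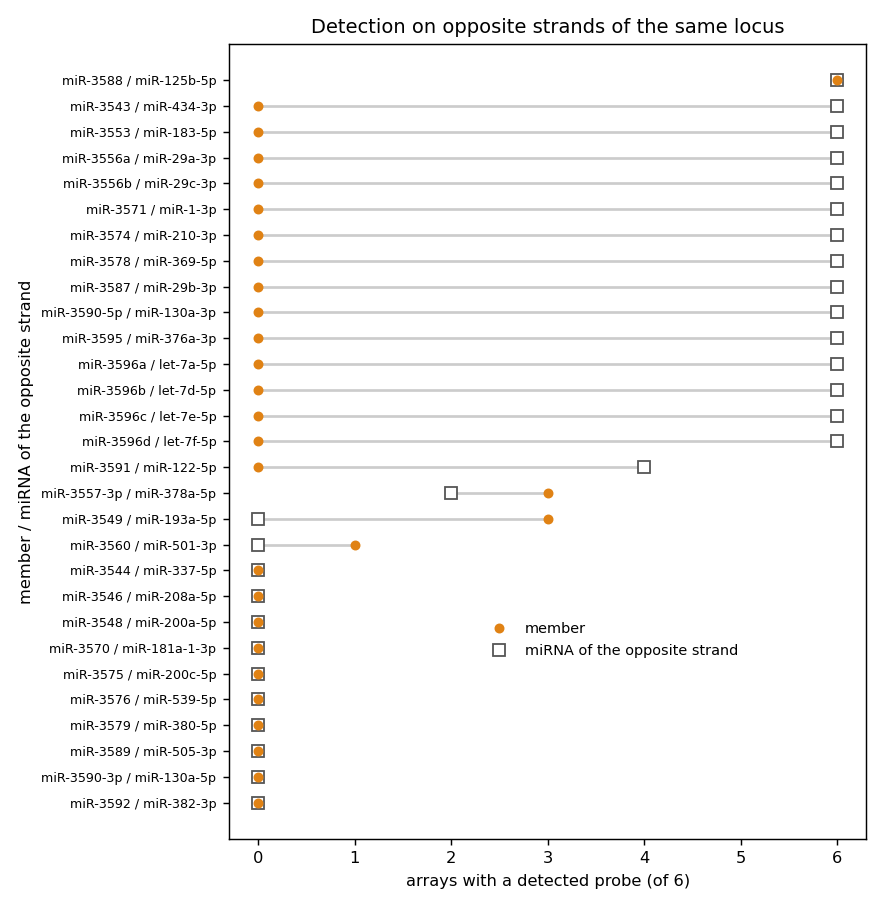
Number of arrays, of 6, with a detected probe for each member (orange dots) and for the miRNA of the opposite strand (open squares), in the 29 pairs with both on the array. In 14 pairs the square stands at 6 and the dot at 0, and miR-3588 with miR-125b-5p is the pair with both at 6.

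The detected members were richer in G and C, at the median, than the undetected ones. The median GC share of the mature sequence was 56.5% over the 9 tested members, 54.5% over the 3 detected on 1 or 2 arrays and 45.6% over the 50 with a sequence that were detected on none. The median share of G was 31.8%, 38.1% and 20.5% in the same 3 sets. The ranges overlapped widely, from 36.4% to 72.2% GC over the tested members and from 30.4% to 71.4% over those on no array. miR-3584-5p had the highest share of both, with 72.2% GC and 55.6% G. Base composition also acts on the binding of a probe, and its part in detection was not tested.

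Some lists of tissue markers differed between the groups over the same arrays, and the smooth muscle, mesenchymal and leukocyte lists overlapped. All 4 striated muscle miRNAs had lower means in ARM, with a list mean of 3.67 to 5.21 in ARM samples against 6.51 to 8.55 in control samples. Of the 4, 3 were called lower, beside 26 of all 230 tested miRNAs. Both erythroid miRNAs fell, with 4.97 to 5.44 in ARM samples against 6.43 to 7.35 in control samples, as did miR-122-5p. All 9 miRNAs of intestinal epithelium were detected, with 6.60 to 7.22 in ARM samples against 4.69 to 6.34 in control samples, and none passed the test. Both smooth muscle miRNAs were detected (7.62 to 7.88 in ARM against 6.91 to 7.71), as were all 3 mesenchymal ones (8.07 to 8.36 in ARM against 8.32 to 8.68) and 3 of 4 of leukocytes (3.62 to 4.25 in ARM against 3.75 to 3.95), while of 3 miRNAs of neurons and glia 2 were detected on 1 or 2 arrays and 1 on none. Control sample 3 correlated with ARM sample 1 at 0.960 over all tested miRNAs, across miRNAs that are not independent replicates, against 0.941 and 0.948 with the other controls. Their part in the members' differences was not tested. The share of spots well above background was 8.58% to 13.5% per array over the members and 22.3% to 26.3% over all miRNAs, and no spot was saturated.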

How the data were processed

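Each sample was hybridised in 1 colour (Cy3) to a rat miRNA array. The deposited intensity values (the processed signal of each spot and the total signal per miRNA) were, per the file headers, made by the authors with Agilent Feature Extraction 10.7.1.1, with background subtracted and no scaling between arrays. The deposited value table held the same intensity as the scanner files (largest difference 0), so it is linear and uncentred. Control spots and spots called outliers were left out and spots averaged per probe. Arrays were scaled to the 75th percentile of the 300 probes that all 6 arrays detected, floored at 1 and put on the log2 scale; a member's level averaged its probes. The 230 miRNAs with a probe detected on at least 3 arrays were tested with limma 3.58.1 (R 4.3.3), with p-values adjusted by Benjamini-Hochberg, after the fit was tested on simulated data. With 3 arrays a group, their number limits the precision.

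Groups and replicate numbers came from the sample titles. No label says that the numbers pair the samples, and the main fit did not use them as pairs. Slide 1 held all arrays but ARM 3, which also had its own scan date in the file headers. Alternatives covered scaling, background, filter, floor, probes, slide, replicate block, array weights and each replicate left out. The members and lists were chosen with earlier results of these data known. Every member past the detection filter is named; opposite-strand miRNAs were named after their values were seen. Sequences and positions are from RefSeq, GRCr8. Names are those of the array design.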

Additional observations from a re-analysis of the deposited data

How the results depend on the processing

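None of the 9 tested members passed under 19 of the 21 alternatives. With array weights 2 passed, and without control replicate 3 also 2, so the count ran from 0 to 2 when replicates were left out in turn. Control replicate 3 also had the lowest array weight. Slide as a block, within slide 1 and without ARM replicate 3 gave the same values, because ARM 3 was the only array off slide 1. Over all tested miRNAs the 31 calls became 16 with normexp background correction, 0 without the detection filter (134 at an unadjusted p of 0.05), 0 with slide as a block or within slide 1 (78 unadjusted), 0 with the replicate block (73 unadjusted) and 87 with array weights, and ran from 0 to 92 with each replicate left out (0 without ARM 3, control 1 or control 2). The deviations of ARM and control samples of the same number correlated at -0.07, -0.28 and -0.21. Those of samples of different numbers ran from -0.33 to 0.47. Deviations from the mean of a small group depend on each other, and no label names a dam. These values thus cannot decide whether equal numbers mark pairs. The members' median difference of -0.04 became -0.36 without scaling, -0.22 on the total gene signal, 0.13 with normexp, -0.32 over members detected on all arrays and -0.25 within slide 1 or with slide as a block, and ran from -0.25 to 0.22 with a replicate left out.

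Of 186 member values, 163 kept sign and call, 19 turned sign and 4 newly passed. These counts take the values of the identical slide fits each time. miR-3549 (0.58) and miR-3559-5p (0.89) passed with array weights, and without control replicate 3 (0.63 and 1.00). miR-3473 and miR-3584-5p kept their sign under every alternative run, from -1.75 to -0.22 and from -2.31 to -0.86. Without scaling, miR-3562 was -0.29 and miR-3593-3p -0.0028; on the total gene signal, miR-3559-5p was -0.13, miR-3562 -0.14 and miR-3593-3p -1.26. With normexp, miR-3557-3p was 0.14 and miR-3573-3p 0.13. miR-3573-3p was 0.031 with quantile normalization, and miR-3562 was -0.0083 with the percentile over all probes, -0.022 with array weights and -0.32 within slide 1 or with slide as a block. With a replicate left out, values that turned were miR-3557-3p (-0.59 to 0.42), miR-3562 (-0.32 to 0.25), miR-3573-3p (-0.13 to 0.019) and miR-3588 (-1.38 to 0.012). Detected members numbered 37 (55.2%, against 67.4% of the other miRNAs) when a spot only had to be significantly positive, and 12 on the main call. The members' median pooled SD of 0.45 (0.25 over all tested miRNAs) became 0.14 with normexp (0.11 over all), 0.82 on the total gene signal (0.30 over all) and, with no filter, 0.16, below the 0.21 over all. Keeping outlier spots, an alternative chosen after seeing the data, changed no member's call. The offset of 50 added with normexp narrows log2 spread at low intensity, for members and other miRNAs alike. Beyond that, the cause of these shifts was not tested. Low signal over background limits miR-3549, miR-3557-3p and miR-3593-3p, and also miR-3559-5p, whose dimmer probe was detected on no array.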
